A study of Mus musculus with 4 samples.

Results

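Mouse chromosome 4 outside the Skint gene cluster was described as a copy-number profile of liver DNA. Its members are the probes whose position lies on chromosome 4 in the scanner files, without those in the interval that holds the Skint genes, and they were chosen by position alone. The rule gave 3267 of the 54677 probed positions on the array, against 3321 on the whole of chromosome 4, and all 3267 were measured on all 4 arrays. The interval left out divides them in a proximal part, 1799 probes from 3159538 to 111456871 (mm9), and a distal part, 1468 probes from 113868222 to 155559340. The proximal part spans 108 Mb and the distal part 41.7 Mb, and the median spacing of probes was 18.3 kb.

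The samples are 4 DNA preparations from mouse liver cells with the genotype TAK1LPC-KO_RIP3-_-, that is without TAK1 in liver parenchymal cells and without RIP3. Each was labelled with Cy5 and set against a Cy3-labelled pool of DNA from 4 normal livers, which is the only control. The labels used here give no age, sex, strain, promoter for the deletion or treatment, and no second genotype. The DNA came from fixed, embedded sections, which hold every cell of the tissue, so a change in few cells and a small change in many cannot be told apart. DNA carries no expression markers, and the labelled tissue was therefore not checked.

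In array comparative genomic hybridisation a test DNA and a reference DNA compete for the same probes, and the log2 of their ratio is 0 where both hold the same number of copies. For scale, 3 copies against 2 in every cell give 0.58, and 1 copy against 2 gives -1. Mouse chromosomes have their centromere at one end, so proximal means towards the centromere. Chromosome 4 carries Map3k7, the gene of TAK1, a kinase that relays TNF and interleukin signals to NF-kB and JNK. It also carries the Cdkn2a tumour suppressor locus, the type I interferon cluster, several cytochrome P450 clusters and many genes of liver metabolism.

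Each probe is a short stretch of genomic sequence, and single probes moved much further from 0 than the chromosome did. The sequences below belong to the probes of the targeted gene and to probes at the extremes, which were chosen after their values were seen. They are printed as the scanner files give them, with CpG dinucleotides in capitals, and no source used here gives their strand.
Map3k7, chr4:32081627-32081686: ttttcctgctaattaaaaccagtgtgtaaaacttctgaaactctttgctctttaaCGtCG
Map3k7, chr4:32104945-32105004: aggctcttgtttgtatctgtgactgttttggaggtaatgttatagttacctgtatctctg
Agrn, chr4:155546535-155546594: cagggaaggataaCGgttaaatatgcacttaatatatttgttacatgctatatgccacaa
Tcea3, chr4:135826124-135826183: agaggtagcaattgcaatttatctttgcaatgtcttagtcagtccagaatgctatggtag
Pou3f2, chr4:22414408-22414453: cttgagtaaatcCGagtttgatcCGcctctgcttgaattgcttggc
Foxo6, chr4:119955110-119955167: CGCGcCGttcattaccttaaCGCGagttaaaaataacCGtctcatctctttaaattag

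The proximal part of chromosome 4 lay above the pool on every array and the distal part lay at it. The proximal median log2 ratio was 0.13, 0.13, 0.16 and 0.16 on replicates 1 to 4. Its mean was 0.14 ± 0.017 (SD, n = 4; limma, adjusted p = 3.56e-07), a 1.11-fold ratio. All arrays were high, and replicates 3 and 4, which shared a slide, were the highest. The distal median was -0.0068, -0.026, 0.012 and 0.023, with a mean of 0.00043 ± 0.022 (limma, adjusted p = 0.959). The arrays of the distal part lay on both sides of 0. Over 20 regions, the 18 other autosomes and these parts, 30% were called higher and 50% lower in the same test, so a called median is common here. The labels do not say whether separate animals were used, so the p-values cover only how much these 4 samples vary, which may be technical, and not how normal livers vary. Dyes were not swapped, so any dye effect on a probe remains in its value.

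The difference between the parts was larger than the spread between arrays. Proximal minus distal came to 0.14, 0.15, 0.15 and 0.14, with a mean of 0.144 ± 0.0081. The exact sign-flip permutation test gave a two-sided p of 0.125, the smallest that 4 arrays can give. When every autosome was divided at the same share of its probes, the mean difference of chromosome 4 was the largest of 19. Next were chromosome 15 with 0.134 ± 0.012 and chromosome 5 with 0.126 ± 0.021. On replicate 4 chromosome 5 was larger, at 0.146 against 0.136. After a correction of each array for the mean GC content of probes within 1 Mb, a setting added after the data were seen, the difference of chromosome 4 was 0.068. The ranking was not repeated in that setting. The distal median then lay at 0.050 and was called higher (limma, adjusted p = 0.000158). The chromosome as a whole had a median of 0.072, 0.064, 0.098 and 0.10 on replicates 1 to 4, with a mean of 0.084 ± 0.018 (limma, adjusted p = 9.25e-06). That was the fourth highest of 19 autosomes, of which 31.6% were called higher and 52.6% lower.

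Against the 3 autosomes with the highest medians the proximal part held an intermediate place. It lay below chromosome 8 on all 4 arrays, by a mean of -0.018 ± 0.0070, and below chromosome 13 on all 4, by -0.033 ± 0.021. It lay above chromosome 14 on all 4 arrays, by 0.030 ± 0.021. The exact sign-flip permutation test gave p = 0.125 for each of these differences. The distal part minus chromosome 5, its nearest neighbour in rank, was -0.00078 ± 0.029, with both signs among the arrays.

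**Figure D1:**
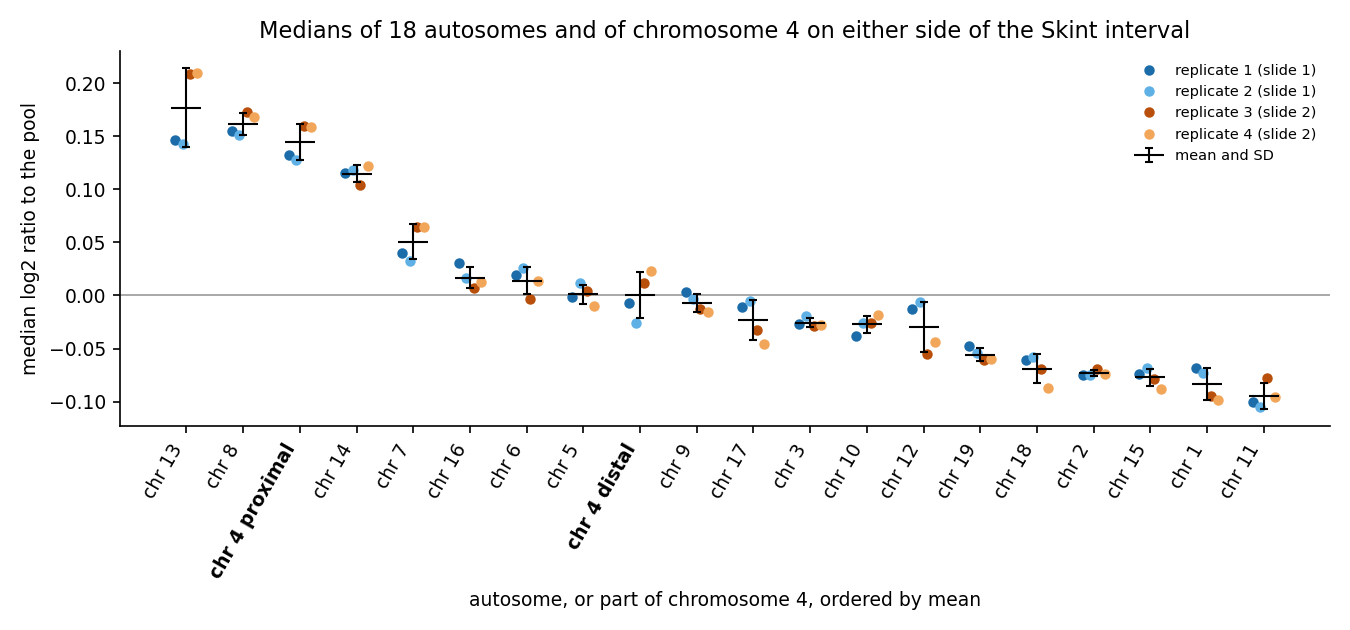
Median log2 ratio to the pool (vertical axis) of 18 autosomes and of chromosome 4 on either side of the Skint interval, ordered by mean; points are the 4 arrays, bars the mean and SD. The proximal part sits between 0.13 and 0.16, next to chromosomes 8 and 14, and the distal part spreads over 0.

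Windows of 5 Mb show where along the chromosome the ratio departs from 0. Of 32 windows with at least 20 probes, 20 were called higher and 1 lower (limma, adjusted p under 0.05 and an absolute mean of at least 0.1). Over all 490 autosomal windows 24.5% were called higher and 13.3% lower. All 20 windows called higher were among the 22 windows of the proximal part. The window that reaches across the Skint interval, with a mean of 0.093 ± 0.049 (limma, adjusted p = 0.0016), stayed under the size limit. Of 9 distal windows 0 were called higher by limma, with 2 at an unadjusted p under 0.05, and 1 was called lower. The highest distal window, from 155 to 160 Mb with 47 probes, gave 0.11, -0.022, 0.17 and 0.12. Its mean of 0.093 ± 0.081 stayed under the size limit. After the regional GC correction it lay at 0.21, as did the proximal window from 95 to 100 Mb. With normexp, another background correction, it lay at 0.020.

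The highest windows lay apart from each other. The window from 35 to 40 Mb held 0.22, 0.31, 0.24 and 0.28, with a mean of 0.26 ± 0.041 over 37 probes (limma, adjusted p = 8.25e-08). Of these 37 probes 22 belong to Lingo2. With normexp this window lay at 0.14, under the windows from 20 to 25 and 95 to 100 Mb, each at 0.20. From 20 to 25 Mb the arrays gave 0.26, 0.26, 0.25 and 0.24, with a mean of 0.25 ± 0.0094 over 62 probes (limma, adjusted p = 7.18e-08). From 95 to 100 Mb, the stretch with the Cyp2j cluster, they gave 0.23, 0.18, 0.31 and 0.27, with a mean of 0.24 ± 0.056 (limma, adjusted p = 2.55e-07). In each of these windows all 4 arrays were well above 0.

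The proximal part was not evenly raised. The window from 40 to 45 Mb, with 158 probes and 86 named genes, had a mean of 0.029 ± 0.014 and was not called. The one from 60 to 65 Mb gave -0.034, -0.019, 0.11 and 0.056, with a mean of 0.028 ± 0.067. The 2 arrays of the first slide lay below 0 there and those of the second above. This order depended on the processing. After the regional GC correction the windows from 40 to 45 and 60 to 65 Mb lay at 0.070 and 0.097. Those from 15 to 20 and 30 to 35 Mb, called higher before it, then lay at 0.058 and 0.057. In running medians of 21 probes the highest stretch of the proximal part, 0.38 ± 0.015, lay at 6649553 to 8749613 and held Tox, Car8, Rab2a and Chd7. The lowest, -0.18 ± 0.079, lay at 41576422 to 43045081, a stretch with Galt, the galactose-1-phosphate uridylyltransferase, and Il11ra1. Of the 1779 overlapping running medians of the proximal part 68.7% were above 0 on all 4 arrays, against 25.8% of 1448 in the distal part.

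The lowest windows were distal. The window from 135 to 140 Mb gave -0.086, -0.17, -0.086 and -0.088, with a mean of -0.11 ± 0.042 over 195 probes (limma, adjusted p = 0.000354). Replicate 2 was the lowest there, and without it the mean was -0.087 and the window was no longer called. With normexp, another background correction, it lay at -0.077, with bright probes alone at -0.078, and after probe and regional GC correction at -0.090 and -0.075, each time under the size limit. The window from 150 to 155 Mb had a mean of -0.064 ± 0.022 and that from 140 to 145 Mb one of -0.0045 ± 0.052. After the regional GC correction these windows lay above 0, at 0.037 and 0.050. The lowest running median of the distal part, -0.30 ± 0.045, covered 139475836 to 140261351 with Igsf21, Arhgef10l and Rcc2. The highest, 0.29 ± 0.064, covered 114636003 to 115169914 with Stil, Tal1 and the Cyp4 genes Cyp4x1 and Cyp4a14.

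**Figure D2:**
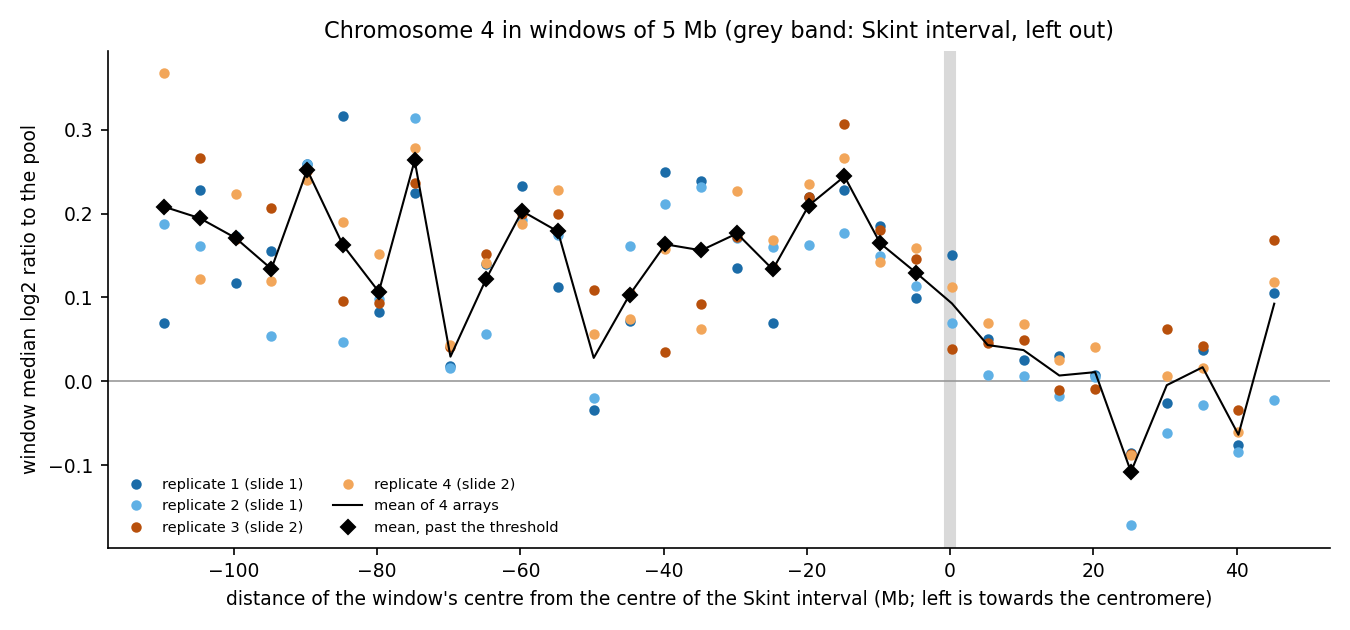
Window medians of the log2 ratio to the pool (vertical axis) against the distance in Mb of the window's centre from the centre of the Skint interval (horizontal axis), for the 4 arrays and their mean; diamonds mark the 21 windows past the threshold. Windows left of the grey band lie mostly between 0.1 and 0.26. Most windows right of it lie near 0, with the last at 0.093.

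The slides, which hold different samples and so cannot be told apart from them, were compared window by window. With 2 arrays on each slide such a fit can miss differences, so few calls do not show that the profiles were alike. The distal median was -0.0068 and -0.026 on slide 1 and 0.012 and 0.023 on slide 2. In a fit with slide as a term, 0 of 32 windows differed between slide 2 and slide 1 (limma), with 6 at an unadjusted p under 0.05, and 0.204% of all autosomal windows did.

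The number of probes in a window moved with its ratio, and the parts differ in it. The 9 windows of chromosome 4 with under 50 probes had a mean median of 0.16 ± 0.047, and the 8 with 50 to 99 probes 0.17 ± 0.017. The 10 windows with 150 probes or more had 0.028 ± 0.018, with 2 called higher and 1 lower. On the other autosomes windows with under 50 probes gave 0.063 ± 0.0021, and those with 150 or more -0.062 ± 0.0044. The descent from sparse to dense windows was seen in both, and chromosome 4 lay higher at each density. Across the 32 windows the ratio correlated with the log2 number of probes at r = -0.61 and with mean GC content at r = -0.64. Across 458 windows elsewhere these were -0.36 and -0.43. These points share libraries and base composition and carry no p. After the regional GC correction the correlation with GC on chromosome 4 was -0.19 and that with the log2 number of probes -0.52. The part of probe density in the difference between proximal and distal chromosome 4 was not tested.

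**Figure D3:**
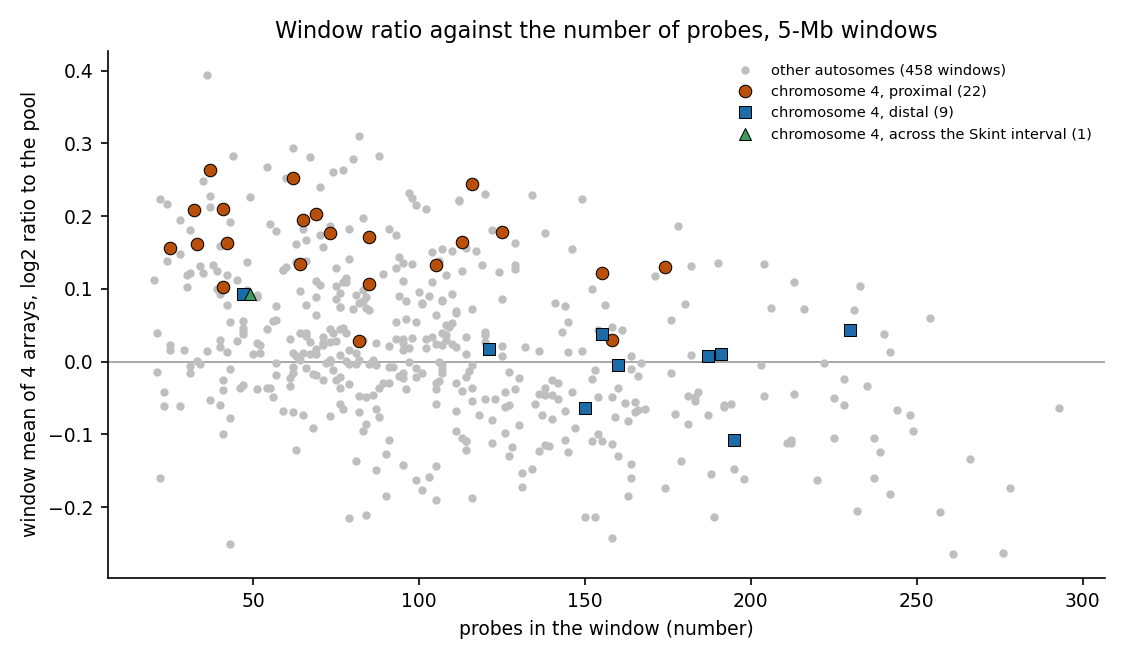
Mean log2 ratio to the pool over 4 arrays (vertical axis) against the number of probes (horizontal axis) for 5-Mb windows, with those of chromosome 4 coloured by part and 458 windows of other autosomes in grey. Windows of other autosomes descend from sparse to dense, and those of chromosome 4 are lower mainly at 150 probes or more. The distal windows of chromosome 4 are mostly dense.

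Single probes gave the same picture with more scatter. The median of the probe means was 0.14 in the proximal part, -0.0032 in the distal part and -0.010 on the other autosomes. Their SD was 0.38 on chromosome 4, while the median SD of a probe between arrays was 0.19. Of 3267 probes 836 were called higher and 412 lower (limma, adjusted p under 0.05 and an absolute mean of at least 0.25). All autosomal probes gave 18.2% higher and 18.8% lower. In the proximal part 546 of 1799 probes, or 30.4%, were higher and 152, or 8.45%, lower. In the distal part 290 of 1468, or 19.8%, were higher and 260, or 17.7%, lower, close to the share of all autosomal probes. Without replicate 2 the lower probes of the chromosome numbered 266.

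Neighbouring probes agreed little with each other, with a correlation of 0.097 over 3266 adjacent pairs, given as a description since the probes share arrays. On the other autosomes this correlation was 0.14. A total of 1129 of the 3267 probes lay above 0 on all 4 arrays and 673 below. Over all 52385 autosomal probes 13904 lay above and 13981 below. Both channels were well above background on all arrays for 2695 probes, or 82.5%. The sample channel was not well above background on any array for 207 probes and the pool channel for 67, of which 64 are the same probes.

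The ratio of a probe went with its base composition. Proximal probes with 30 to 33% GC had a median of 0.24 and those with 36 to 40% GC 0.14, whereas the 70 with 40 to 45% GC had -0.12. Distal probes ran from 0.081 through 0.015 to -0.15 over the same classes. The lowest class did not follow this fall. Under 30% GC the 133 proximal probes had 0.079 and the 47 distal probes -0.019. The proximal median exceeded the distal one in every GC class. On chromosome 4 the 35 probes with 3 or more CpG dinucleotides had a median of -0.15, against 0.088 for the 2048 with none. On the other autosomes probes with 3 or more had -0.13 and those with none 0.00019. Sequence of 15 probes lies whole within 250 bases before to 50 after a RefSeq transcription start (matched by letters to GRCm38.p6), and their median was -0.21, against -0.080 for 299 such probes on the other autosomes. Among these were Artn, a neurotrophic factor, at -0.58 ± 0.064, and the probe at the start of Fam43b at -0.76 ± 0.32. The mean was above 0 for 4 of the 15, of which the probe named for Cpsf3l stood highest at 0.77 ± 0.18, above 0 on all 4 arrays. The 541 probes without a gene name had a median of 0.071 and those with one 0.085.

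The extreme probes printed above stood alone among their neighbours. The Agrn probe, in the gene of the synapse-forming protein agrin, gave 1.52, 1.27, 1.58 and 1.86, with neighbours from -0.40 to 0.46. All arrays were high and no neighbour came near.

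At the low end the picture was the same. The Tcea3 probe, in the gene of a transcription elongation factor, gave -1.38, -1.37, -0.97 and -1.43, with a neighbour median of -0.092. The probe of Pou3f2, a neural transcription factor, gave -1.26, -1.20, -1.13 and -1.15 within a stretch whose neighbours had a median of 0.21. The Foxo6 probe, with 6 CpG dinucleotides and so the most CpG-rich of those printed, gave -1.24, -1.16, -1.09 and -0.93, with a neighbour median of -0.083.

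Genes were summarised by averaging their probes. Of 1290 chromosome 4 genes 328 were called higher and 168 lower (limma, adjusted p under 0.05 and an absolute mean of at least 0.25). All autosomal genes gave 16.2% higher and 19.3% lower. In the proximal part 207 of 627 genes were higher and 47 lower. In the distal part 121 of 663 were higher and 121 lower, or 18.3% each. The median gene lay at 0.15 in the proximal part, at -0.012 in the distal part and at -0.015 over all autosomes. A single probe stood for 522 of the genes, and 329 had at least 3 probes. Exon and intron positions of the probes on mm9 were not used here.

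Map3k7, the targeted gene, lay above the pool on all arrays. The probe at chr4:32081627-32081686 gave 0.59, 1.01, 1.17 and 0.78 and the one at chr4:32104945-32105004 gave 0.34, 0.36, 0.36 and 0.59. Their mean was 0.65 ± 0.13 (SD, n = 4; limma, adjusted p = 0.00191). The 30 other probes within 1 Mb had a median of 0.092 ± 0.067. No source used here places either probe relative to the deleted part, so the ratio does not check the genotype.

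The highest genes with at least 3 bright probes, taken 1 per Mb, were mostly proximal. On chromosome 4, 151 genes had at least 3 probes, all bright. Among 53 candidates past the threshold with 1 sign on all arrays, 41 were higher, 31 of them proximal, and 12 were lower. The shares of all autosomal genes and of proximal genes under this filter are not given here, so these counts have no base. Aco1, the cytosolic aconitase that also regulates iron-responsive mRNAs, gave 0.71, 0.80, 0.65 and 0.48, with a mean of 0.66 ± 0.13 (limma, adjusted p = 0.00191) and all 3 probes at 0.60 or above. Cyp2j9, a cytochrome P450 that oxidises fatty acids, gave 0.66, 0.75, 0.52 and 0.62, with a mean of 0.64 ± 0.099 and 4 probes from 0.18 to 1.16. D730040F13Rik had a mean of 0.58 ± 0.095, Alg6, a glucosyltransferase of N-glycan assembly, 0.55 ± 0.17, and 4930412C18Rik 0.45 ± 0.20. Also among the highest were Agrn, AK019465, Scp2, a sterol carrier protein, and Runx1t1, a corepressor, from 0.63 down to 0.43.

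Some of these means rested on 1 probe. Agrn had 0.63 ± 0.13 over 3 probes and 0.17 ± 0.096 without the probe printed above. Scp2 had 0.44 ± 0.087 and 0.21 ± 0.096 without its highest probe. Aco1 without its highest probe stayed at 0.61 ± 0.074. Runx1t1 ranged from 0.092 to 0.79 over the arrays and was no longer called without replicate 1, 2 or 3, at 0.31, 0.42 and 0.45 (limma, adjusted p = 0.067, 0.075 and 0.063).

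The lowest genes were spread over both parts. Efhd2, a calcium-binding protein of lymphocytes and neurons, gave -0.62, -0.76, -0.31 and -0.49, with a mean of -0.54 ± 0.19 (limma, adjusted p = 0.00494). Galnt12, which starts O-linked mucin glycans, had -0.47 ± 0.16, and Foxo6, a forkhead factor of the brain, -0.44 ± 0.15. The 3 probes of Foxo6 ran from -1.10, the probe printed above, to 0.23, so its mean leaned on that probe. Gm12824, Ncdn (neurochondrin), Raver2, Igfbpl1, Cdcp2, Aim1l and Tbc1d2 lay between -0.38 and -0.30. The proximal genes among these 10 lie in regions whose windows were above 0, Igfbpl1, Tbc1d2 and Galnt12 all within the window from 45 to 50 Mb, with a mean of 0.12 ± 0.044.

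Several of the low calls did not hold in every setting. Without their lowest probe Aim1l had -0.11 ± 0.17 and Tbc1d2 -0.13 ± 0.12, each with 1 array above 0. Aim1l gave -0.40, -0.41, -0.019 and -0.40, so that replicate 3 stood apart, and it was no longer called without replicate 1, 2 or 4, each time at -0.28, or after the regional GC correction, at -0.20 (limma, adjusted p = 0.112). Cdcp2 was no longer called without replicate 1, 2 or 3, at -0.24, -0.32 and -0.37, or after probe GC correction, at -0.31. Tbc1d2 was no longer called without replicate 1, 3 or 4, at -0.29, -0.30 and -0.26. Ncdn lay at -0.18 after probe GC correction and was not called there (limma, adjusted p = 0.096).

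**Figure D4:**
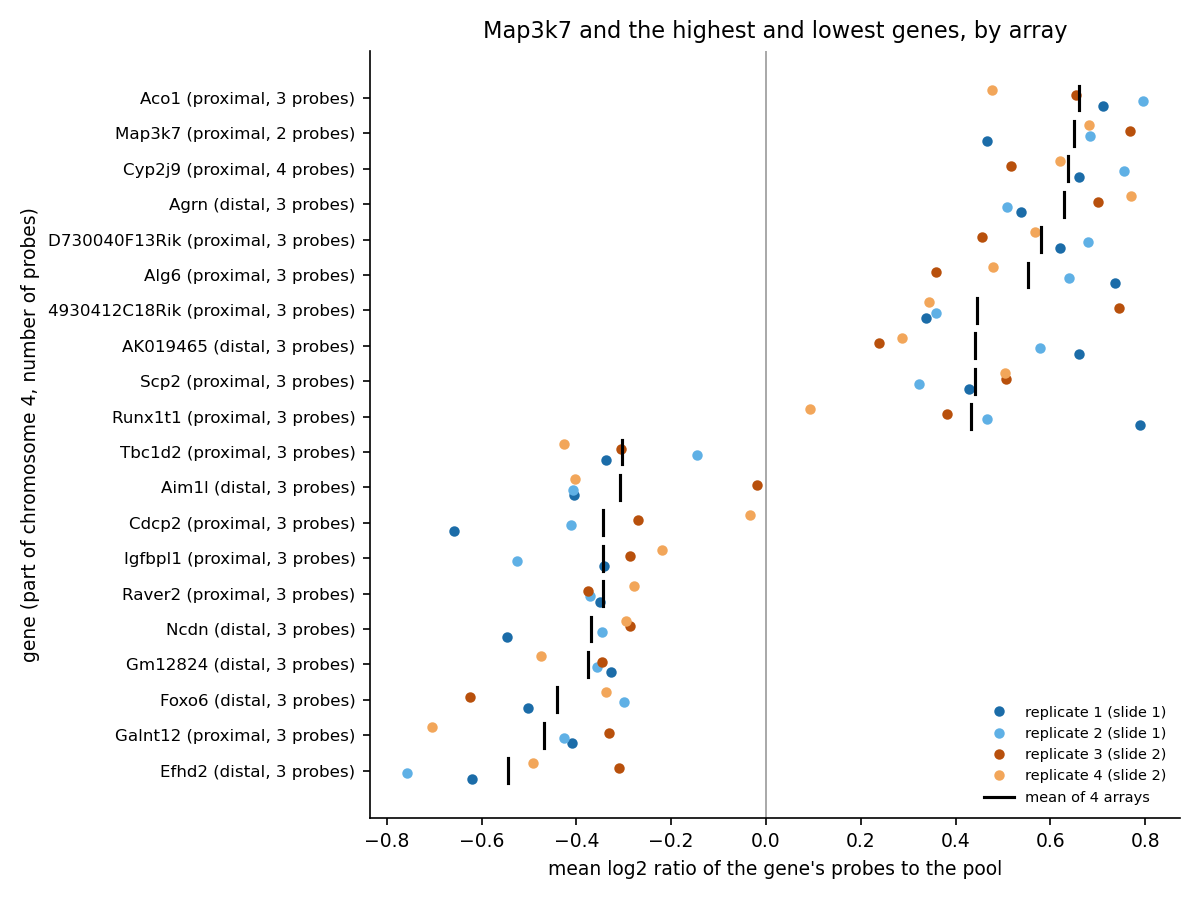
Mean log2 ratio to the pool of a gene's probes (horizontal axis) on each of the 4 arrays, for Map3k7 and the highest and lowest genes described here, with part of the chromosome and number of probes beside the name; black ticks are the mean of the arrays. Arrays of Aco1 and Cyp2j9 lie between 0.48 and 0.80, and 1 array of Aim1l lies near 0.

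Genes of liver metabolism lay mostly above the pool, as did the proximal part in which most of them lie. Of 24 measured hepatocyte genes 13, or 54.2%, were higher and 1 lower, with a median of 0.27, and 16 of the 24 are proximal. For this and the lists that follow, the base is the share of all chromosome 4 genes, 25.4% higher and 13.02% lower, and of all proximal genes, 33.01% (207 of 627) higher and 47 of 627 lower, against 16.2% and 19.3% over all autosomal genes. Cyp7a1, the rate-limiting enzyme of bile acid synthesis, gave 0.53, 0.72, 0.48 and 0.91, with a mean of 0.66 ± 0.19 (limma, adjusted p = 0.00299) over 2 probes at 0.77 and 0.55. Cyp4a14, a fatty acid omega-hydroxylase in the distal part, gave 0.47, 0.56, 0.48 and 0.42, with a mean of 0.48 ± 0.060. Decr1, a reductase of unsaturated fatty acid oxidation, had 0.45 ± 0.17, and Scp2 is given above. All arrays of these genes were above 0. The lower gene was Orm2, an acute-phase plasma protein, at -0.34, from 1 probe. Among those not called, Alad, an enzyme of haem synthesis, lay at -0.07 and C8b, a complement component, at 0.15. Decr1 was not called with normexp, at 0.245, just under the size limit.

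The bile acid and lipid genes shared 9 of these members, and 12 of the 17 are proximal. They had 10 higher, or 58.8% against 33.01% of proximal and 16.2% of all autosomal genes, 0 lower by limma and a median of 0.27. Acer2, an alkaline ceramidase, gave 0.72, 0.94, 0.67 and 0.67, with a mean of 0.75 ± 0.13 (limma, adjusted p = 0.00143). It has 2 probes, both between 86542154 and 86542591, and 1 was well above background in the pool on only 3 arrays. Ppap2b, a lipid phosphate phosphatase, gave 0.29, 0.56, 0.82 and 0.97, with a mean of 0.66 ± 0.30, and 1 of its 3 probes was not well above background in the pool on any array. Its arrays were thus all high but far apart. Plin2, a lipid droplet protein, and Prkaa2, a subunit of AMP-activated kinase, were not called, at -0.13 and 0.18.

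Cytochrome P450 genes of the Cyp4 and Cyp2j families lie in clusters on either side of the Skint interval. Of 10 measured 4, or 40%, were higher and 0 lower by limma, with a median of 0.21, and 6 of the 10 are proximal. Besides Cyp2j9 and Cyp4a14 these were Cyp4x1, with 0.39 ± 0.20, and Cyp4a10, with 0.34 ± 0.20, both from 1 probe. Cyp4b1, at -0.25, and Cyp2j5, the abundant renal and hepatic member, at -0.02, were not called. Cyp4x1 lost its call after probe GC correction, at 0.33, and Cyp4a10 after it, at 0.28, with normexp, at 0.17, and without replicate 1, 2 or 4, at 0.29, 0.34 and 0.30.

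Genes of TNF receptor signalling and apoptosis belong to the pathway of the targeted kinase. Of 18 measured 2, or 11.1%, were higher and 1 lower, against 18.3% in each direction among distal genes and 25.4% higher on the chromosome, with a median of -0.056, and 11 of the 18 are distal. Across the chromosome, too, most genes were not called. Besides Map3k7 the higher gene was Casp8ap2, a caspase-8-associated protein encoded within 1 Mb of it, with 0.44, 0.31, 0.47 and 0.44 and a mean of 0.41 ± 0.074 (limma, adjusted p = 0.00442). The lower gene was Map3k6, a stress-activated kinase of the same family, with -0.48, -0.62, -0.41 and -0.66 and a mean of -0.54 ± 0.12 (limma, adjusted p = 0.00286). None of the receptors measured was called, among them Tnfrsf1b, the second TNF receptor, at 0.14, and Tnfrsf9 at -0.14. Casp9, the initiator caspase of the mitochondrial pathway, lay at -0.18.

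Of 34 tumour suppressors and growth genes 9, or 26.5%, were higher and 3 lower, near the 25.4% higher of all chromosome 4 genes, with a median of 0.13. Mtap, an enzyme of methionine salvage next to Cdkn2a, gave 0.75, 0.65, 0.52 and 0.57, with a mean of 0.62 ± 0.098 (limma, adjusted p = 0.00174). Cdkn2a, the gene of p16 and p19Arf, lay at -0.09 over 3 probes and was not called. Its probes ran from -0.42 to 0.20, and 1 of them was called lower. The 44 other probes within 1 Mb of it had a median of 0.15 ± 0.064. No loss was therefore called for the gene mean, and its probes disagreed. Plag1, a zinc finger oncogene, had 0.53 ± 0.089. Jak1, a cytokine receptor kinase, had 0.44 ± 0.35, with arrays from -0.015 to 0.84. Pax7, a myogenic factor in the distal part, gave -0.34, -0.62, -0.60 and -0.54, with a mean of -0.52 ± 0.13 (limma, adjusted p = 0.00332) over 5 probes that were all below 0, of which 1 was not well above background in the samples on any array. Arid1a, a subunit of chromatin remodellers, at -0.07, and Tgfbr1, a TGF-beta receptor called higher at 0.42, belong to the same list. Jak1 was no longer called without replicate 2, 3 or 4, at 0.45, 0.41 and 0.30, or after regional GC correction, at 0.39.

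Genes of blood cells, which the sections could also hold, were called in both directions. Of 19 measured 3, or 15.8%, were higher and 4 lower, near the 18.3% of distal genes, among which 13 of them are, with a median of -0.028. Lyn, a kinase of B cells and myeloid cells, had 0.46 ± 0.020, and 1 of its 2 probes was not well above background in the samples. C1qc, a complement chain of macrophages, had 0.40 ± 0.063, while its neighbour C1qa was called lower at -0.36, each from 1 probe. Ptafr, the receptor of platelet-activating factor, had 0.37 ± 0.059 and Laptm5, a lysosomal protein of lymphocytes, -0.51 ± 0.083. Laptm5 lost its call after probe GC correction, at -0.21, and with normexp so did C1qc, at 0.19, and Ptafr, at 0.23. As copy-number values these say nothing of how many blood cells were present.

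Large genes had 10 of 29 higher, 0 lower by limma and a median of 0.21, and 21 of the 29 are proximal. The share higher, 34.5%, was near the 33.01% of all proximal genes. Tox, a factor of T-cell development, gave 0.56, 0.55, 0.58 and 0.35, with a mean of 0.51 ± 0.11 (limma, adjusted p = 0.00312), and all 5 probes were called higher. Runx1t1 is given above, Mllt3, a subunit of elongation complexes, had 0.38 ± 0.12 and Ptprd, a receptor phosphatase, 0.37 ± 0.053 over 4 probes from -0.12 to 0.74. Ptprd lay at 0.23 with normexp and lost its call. Agbl4, with 13 probes, lay at -0.03 and Lingo2, with 22, was called at 0.26.

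Clustered families were measured by few probes, and whether their probes bind 1 copy alone was not tested. Of 4 type I interferon genes 3 were higher, Ifnb1 at 0.60 ± 0.20, Ifne, the epithelial member, at 0.49 ± 0.021 and Ifna13 at 0.30 ± 0.064, and Ifna12 lay at -0.01, each from 1 probe. Ifna13 lay at 0.17 with normexp, under the size limit. Of 16 olfactory receptor genes, 1 probe each, 4, or 25%, were higher and 1 lower, near the 25.4% higher of the chromosome, with a median of 0.011. Olfr267 had 0.55 ± 0.14, Olfr275 0.46 ± 0.20, Olfr272 0.44 ± 0.35 and Olfr156 -0.52 ± 0.20. Olfr272 lost its call without replicate 1 or 2, at 0.33 and 0.37, Olfr275 with normexp, at 0.24, and Olfr156 after probe GC correction, at -0.24.

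In the list of zinc finger, Pramel and Oog genes 5 of 15, or 33.3%, were higher and 2 lower, against 25.4% and 13.02% on the chromosome, with a median of 0.065. Oog4, an oocyte gene in a distal cluster of near-identical copies, gave 0.89, 0.83, 1.16 and 0.99, with a mean of 0.96 ± 0.14 (limma, adjusted p = 0.000881). Its 2 probes were at 1.43 and 0.50. Pramel1, in the same cluster, gave 0.57, 0.50, 1.44 and 1.72, with a mean of 1.06 ± 0.62 from 1 probe that was not well above background on every array. The arrays of the second slide were the higher ones for both genes. Oog3, in that family, was called lower at -0.28. Zfp593 had -0.75 ± 0.24 from 1 probe and Zfp462 0.37 ± 0.063 over 5 probes, with 0.24 under normexp, where it was not called.

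Of the 5 Padi genes, which encode peptidylarginine deiminases, Padi4 was called higher at 0.26 ± 0.072, and Padi1, Padi2 and Padi6 ranged from -0.18 to -0.09 and were not called. Neither of the 2 probes of Padi3 was well above background in the samples or the pool on any array. Padi4 lost its call with normexp, at 0.17, with bright probes alone, at 0.24, with centring on the mode, at 0.23, and without replicate 1, 2 or 4, at 0.26, 0.24 and 0.25. No probe carried the name of a major urinary protein gene, so that liver family has no value here.

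**Figure D5:**
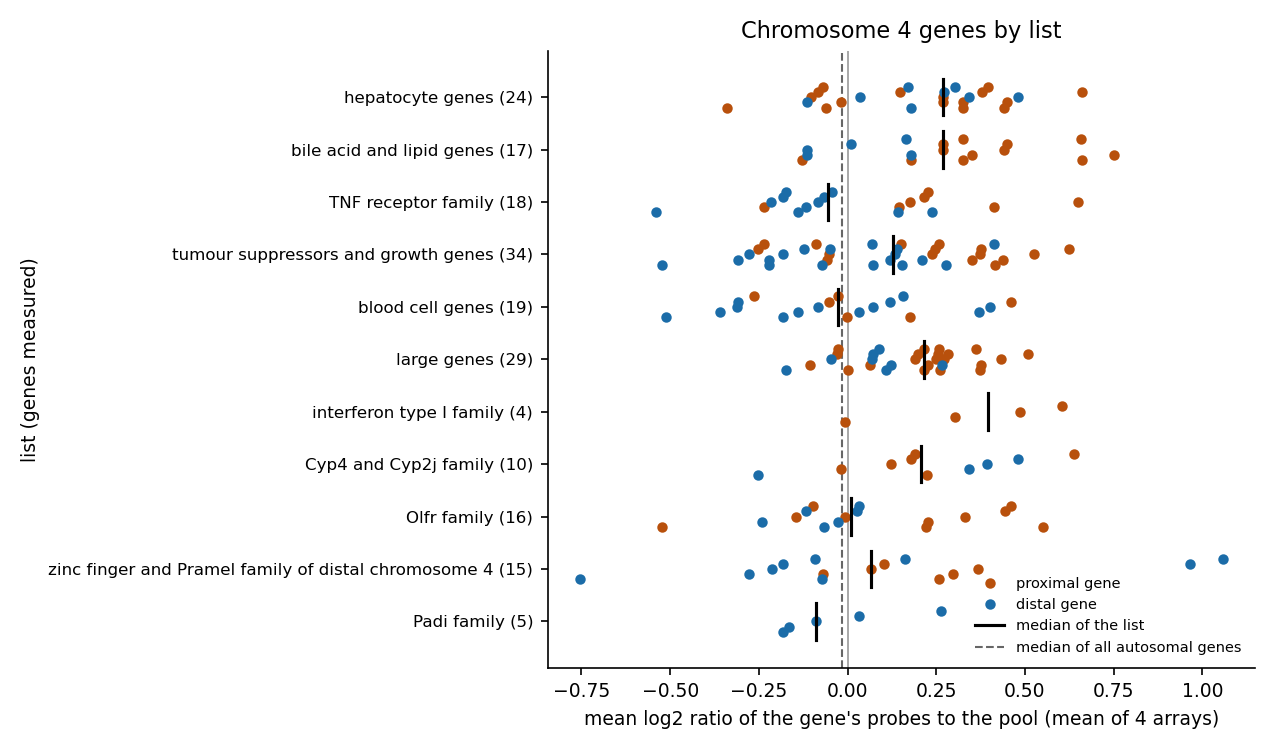
Mean log2 ratio to the pool over 4 arrays (horizontal axis) of each measured gene, by list, coloured by part of the chromosome; black ticks are list medians and the dashed line is the median of all autosomal genes at -0.015. The hepatocyte and the bile acid and lipid lists have medians of 0.27, and the Padi list has a median of -0.090.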

How the data were processed

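Genomic DNA of 4 samples was measured on 4 two-colour arrays, sample in Cy5 and the normal-liver pool in Cy3. Per the labels, 250 ng of DNA from fixed, embedded sections was labelled. The deposited intensity values are, per the file headers, output of Agilent Feature Extraction 10.10.1.1 after background subtraction, detrending and linear dye normalisation, with positions on mm9. The deposited log10 ratio column was used as a check, and it matched the ratios taken here. A deposited table of log2 values, whose within-array normalisation is unknown, served as an alternative: against the scanner ratios it had slopes of 1.00 to 1.09, r of 0.91 to 0.92 and column medians of -0.035, 0.029, 0.052 and 0.0050.

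Here the log2 of processed Cy5 over Cy3 was taken, without control and outlier-flagged spots, replicate spots were averaged per probe, and the autosomal median of each array was subtracted. That left 54669 probes, 52385 of them autosomal. The scanner's derivative log ratio spread ran from 0.38 to 0.42, and the number of arrays limits the precision. Medians of regions and of windows, probes and genes were tested against 0 with limma 3.58.1 in R 4.3.3 over all autosomes, with Benjamini-Hochberg adjustment. The limma fit was run on simulated independent noise with planted shifts larger than the size limits used here. That run does not bear on effects of GC, dye or neighbouring probes. Samples form 1 group. Slide 1 holds replicates 1 and 2.

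Named were Map3k7, the 10 highest and 10 lowest called genes with at least 3 probes, all well above background, and 1 sign on the arrays, 1 per Mb, up to 4 called members of each list and the 3 highest and 3 lowest windows. Some genes that this rule takes are not reported here. Other genes and single probes were picked after their values were seen, except list members named for their role. Members and lists were chosen with earlier results of these data known. Gene names are those of the array, of which 885 are symbols and 119 synonyms in RefSeq (GRCm38.p6). Alternatives were another background correction (normexp, offset 50), the deposited table, bright probes alone, other centrings, GC corrections, slide as a random block, the Skint interval left in, other windows and limits, and leaving out each array.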

Additional observations from a re-analysis of the deposited data

Results flagged for a closer look

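Among 89 values, the medians, the windows and the named genes, 5 had 1 array far from the other 3, where chance alone gives about 1 in 20. The gap to the nearest array, as a share of the whole range, was 0.874 for the window from 45 to 50 Mb, with replicate 2 at 0.056 against 0.14 to 0.15 on the others. It was 0.978 for the window from 135 to 140 Mb, with replicate 2 at -0.17 against -0.088 to -0.086. For Tox it was 0.886, with replicate 4 at 0.35 against 0.55 to 0.58. For 4930412C18Rik it was 0.948, with replicate 3 at 0.74 against 0.34 to 0.36. For Aim1l it was 0.994, with replicate 3 at -0.019 against -0.41 to -0.40.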

How the results depend on the processing

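The chromosome 4 median and the proximal median kept their direction and their call in every alternative run, from 0.055 to 0.099 and from 0.12 to 0.17. Proximal minus distal was 0.124 with normexp, 0.172 with the deposited table, 0.123 after probe GC correction and 0.068 after the regional GC correction, a setting added after the data were seen. Without each replicate it ranged from 0.141 to 0.147. The distal median was called after the regional correction, at 0.050, and in no other alternative run. Windows past the threshold numbered 32 of 56 at 2 Mb and 9 of 16 at 10 Mb, against 21 of 32 at 5 Mb, and 14 at a limit of 0.15. At a limit of 0.5, 568 probes in place of 1248 and 135 genes in place of 496 passed. At the limit of 0.25, 111 of the 329 genes with at least 3 probes passed. Leaving out an array gave 837 to 934 probes and 360 to 398 genes. Slide differences were called in 1 window with mode centring and in 1 with windows of 10 Mb. The lower window was not called with normexp, bright probes or either GC correction. Of 53 named genes 34 kept their call in every alternative run for them, 0 reversed, and normexp removed 9 calls and probe GC correction 6. Slide as a random block removed 0. No paired analysis was possible because there was 1 group, with no replicate numbers shared between groups. Signal limits the 207 probes that were not well above background in the samples on any array.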
